A study of Mus musculus with 6 samples.

Results

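Chemokines and their receptors were examined in lung from ob/ob mice, which lack functional leptin, after leptin or saline. The set holds every probe set with exactly 1 annotated symbol that begins with Ccl, Cxcl, Ccr or Cxcr followed by a digit, or that is Cx3cl1, Cx3cr1, Xcl1, Pf4 or Ppbp. It comprised 67 of 22626 probe sets and 50 of 12393 genes, with 34 ligand genes on 44 probe sets and 16 receptor genes on 23. Another 4 probe sets whose annotation joins a chemokine symbol to further symbols were left out. The rule uses names alone, though this family was picked with earlier results of these data known.

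All 6 animals were females of the strain B6.V-Lepob/J, aged about 1 month, and carried the same mutation of the leptin gene, so the saline animals are leptin-deficient controls and no lean mouse entered the comparison. Leptin was given to 3 and saline to 3, and each lung, labelled as 1 tissue with n = 1, was hybridised to 1 Affymetrix Mouse 430A array. The question for the chemokine system is whether replacing the absent hormone goes with another level of any ligand or receptor. The sources used here state no dose, route or duration of treatment.

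Chemokines are small secreted or membrane-bound proteins that guide leukocytes along concentration gradients by binding G protein-coupled receptors on them. CXC ligands and CC ligands are named for the spacing of their first conserved cysteines, and most receptors bind several ligands. In the lung, some chemokines are made at rest by epithelium, stroma and platelets, and others are induced by infection or injury.

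The array of saline replicate 1 stood apart and is given beside the other saline arrays, not averaged with them. Its log2 values correlated at 0.438 to 0.447 with those of the other arrays (Pearson's r over probe sets of the whole array, a description only), whereas r among the remaining 5 ran from 0.973 to 0.978. Its spiked-in hybridisation controls read a median 29.1-fold above the mean of the other 5 arrays. On those 5 arrays the lung markers were bright: the summed intensity of 8 alveolar type II and club cell genes, including the surfactant proteins, lay between 142954 and 158664 with leptin and at 160867 and 158474 on saline replicates 2 and 3. The sum of 101831 on saline replicate 1 was mostly the club cell gene Scgb1a1, at 68879.7, and the other 7 genes were all below their level elsewhere there, down to 124.6 for Napsa against 5691.0 to 6130.7.

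Of the genes in the set, 6 belong to a cluster of CXC ligand genes on chromosome 5. They included the brightest member in this lung, both platelet chemokines and 3 dim genes. In the RefSeq gene table the order is Cxcl5, Ppbp, Pf4, Cxcl3, Cxcl15, Cxcl1 and Cxcl2, with no other protein-coding gene between them, and Cxcl3 had no probe set in the set. The promoters of the 5 that RefSeq sequences were at hand for (assembly GRCm38.p6) are shown because these neighbours read so differently. Each line gives 300 bases from 250 before the annotated start to 50 after it, 5′ to 3′ on the plus strand, in lower case, with motif matches in capitals.
Ppbp: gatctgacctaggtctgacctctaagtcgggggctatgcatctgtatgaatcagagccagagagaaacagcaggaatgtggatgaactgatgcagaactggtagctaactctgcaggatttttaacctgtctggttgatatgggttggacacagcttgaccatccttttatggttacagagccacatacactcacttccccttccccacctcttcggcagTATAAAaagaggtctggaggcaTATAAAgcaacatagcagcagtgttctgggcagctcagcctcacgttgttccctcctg
Pf4: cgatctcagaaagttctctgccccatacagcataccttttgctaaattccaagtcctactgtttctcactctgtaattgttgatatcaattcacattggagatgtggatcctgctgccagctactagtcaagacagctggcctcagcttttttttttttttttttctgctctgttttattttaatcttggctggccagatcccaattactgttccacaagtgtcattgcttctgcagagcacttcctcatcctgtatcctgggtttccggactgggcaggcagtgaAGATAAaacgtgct
Cxcl15: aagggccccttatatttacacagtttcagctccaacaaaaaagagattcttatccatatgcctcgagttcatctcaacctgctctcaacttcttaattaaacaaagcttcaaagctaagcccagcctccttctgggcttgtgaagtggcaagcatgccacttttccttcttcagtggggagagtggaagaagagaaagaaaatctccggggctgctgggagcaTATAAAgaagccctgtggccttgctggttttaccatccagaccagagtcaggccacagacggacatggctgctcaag
Cxcl1: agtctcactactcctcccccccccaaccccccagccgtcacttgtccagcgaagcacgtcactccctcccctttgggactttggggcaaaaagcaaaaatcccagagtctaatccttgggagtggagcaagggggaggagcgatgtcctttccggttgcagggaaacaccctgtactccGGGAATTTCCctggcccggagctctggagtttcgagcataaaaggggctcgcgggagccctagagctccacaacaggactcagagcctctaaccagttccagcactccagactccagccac
Cxcl2: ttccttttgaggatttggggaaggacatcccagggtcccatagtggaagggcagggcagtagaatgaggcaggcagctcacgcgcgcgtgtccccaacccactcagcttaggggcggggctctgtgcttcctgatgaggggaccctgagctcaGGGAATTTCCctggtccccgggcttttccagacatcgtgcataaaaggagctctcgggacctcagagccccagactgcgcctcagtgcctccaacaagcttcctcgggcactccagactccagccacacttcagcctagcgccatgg

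These windows lie at chr5:90768268-90768567 for Ppbp, chr5:90772185-90772484 for Pf4, chr5:90794284-90794583 for Cxcl15, chr5:90890995-90891294 for Cxcl1 and chr5:90903649-90903948 for Cxcl2. A base just before the start is counted as -1 and the start itself as 1. The capitals mark matches on either strand to a TATA box (TATAAA), an NF-kB motif (GGGA, any base, then TTTCC), a STAT motif (TTCNNNGAA), a GATA motif (AGATAA or TGATAA) and an interferon response motif (GAAA, NN, then GAAA). No match overlapped another in these 5 windows.

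The TATA box letters stood at -27 to -22 in Cxcl15 and at -30 to -25 and -8 to -3 in Ppbp. They occur in 13.57% of the 32544 promoter windows of this length and in those of 11 of the 37 member genes that had an entry. For every motif, a member gene was counted if any of its windows held the letters. The gene counts and the shares of windows are therefore not directly comparable. The NF-kB letters stood at -71 to -62 in Cxcl1 and at -97 to -88 in Cxcl2, both as GGGAATTTCC. They occur in 0.41% of all windows and in those of 3 member genes, Cxcl1, Cxcl2 and Ccr3. Pf4 had the GATA letters at 37 to 42, which 18.51% of all windows hold. The STAT letters, the motif of the factors that leptin's receptor activates, occur in 8.33% of all windows and in those of 4 member genes, Cxcl14, Ccl17, Ccr6 and Ccr1l1. The interferon motif occurs in 3.45% of all windows and in those of Cxcl10 and Cxcl14. A match describes these letters and is no evidence of binding.

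Cxcl15 (lungkine, Entrez Gene 20309), an epithelial chemokine of the lung that attracts neutrophils, was the brightest member. It read 10239.4, 11019.3 and 12695.6 on leptin replicates 1 to 3, 11655.9 and 12089.7 on saline replicates 2 and 3, and 2605.5 on saline replicate 1. Both saline values lay inside the leptin range. The leptin mean was 11318.1 ± 1255.1 (SD, n = 3) and the saline mean 11872.8 ± 306.7 (SD, n = 2). The log2 difference, leptin minus saline, was -0.07 ± 0.11 (SE), with a 95% interval of -0.33 to 0.18. Even its lowest value on these 5 arrays was above the highest of any other member.

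Ppbp and Pf4, chemokines stored in the alpha granules of platelets, were among the brighter members too. Pf4 read 1411.4, 1647.7 and 1580.1 with leptin, 1622.0 and 1559.6 on saline replicates 2 and 3, and 2381.0 on saline replicate 1. Ppbp read 841.9, 1167.0 and 1204.8 with leptin, 890.1 and 1046.7 on the 2 saline arrays, and 695.2 on saline replicate 1. The groups overlapped for both, with log2 differences of -0.04 (95% interval -0.33 to 0.25) for Pf4 and 0.13 (-0.26 to 0.52) for Ppbp. Beside them, 7 of 10 platelet markers had a probe set of their own (Gp1ba, Gp6 and Tubb1 did not), and these summed to 2071 to 2409 with leptin, to 2412 and 2216 on the 2 saline arrays and to 2909 on saline replicate 1. Of the 6 platelet markers tested, 2 were at values above 0 and 4 below, with a median log2 difference of -0.07. Among the other blood cells, all 6 erythroid markers tested were at values below 0, with a median of -0.98. Of these, Alas2, Bpgm and Slc25a37, which serve heme synthesis, red cell glycolysis and mitochondrial iron uptake, fell with leptin (limma adjusted p = 0.0498 for each). In many alternative runs 0 probe sets passed, these included. That held with the replicate block, with all 6 arrays, without the filter, without the variance trend and at a pseudocount of 1. It also held with quantile or median normalization and without leptin replicate 1. The erythroid markers summed to 4742 to 6145 with leptin, to 13793 and 11110 on the 2 saline arrays and to 887 on saline replicate 1. The part of either list in the Pf4 and Ppbp values was not tested. In bulk lung RNA, fewer cells of a type and less RNA per cell cannot be told apart.

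The other neighbours were dim. Cxcl5, a neutrophil attractant of inflamed epithelium, read 7.6, 7.0 and 3.1 with leptin, 3.0 and 4.4 on saline replicates 2 and 3, and 80.2 on saline replicate 1. Cxcl1, an early signal for neutrophils, read 43.4, 70.2 and 6.2 with leptin and 14.2 and 28.3 on the 2 saline arrays, with 34.5 on saline replicate 1. Cxcl2, which acts with Cxcl1 through the same receptor, read 47.8, 53.3 and 114.6 with leptin, 75.2 and 52.0 on the 2 saline arrays, and 146.9 on saline replicate 1. All 3 lay below the filter on dim probe sets, which leaves out the lowest 30% by mean intensity, and so were not tested. Their receptor Cxcr2 was also below it, at a mean of 72.8 over the 5 arrays against 1475.0 on saline replicate 1.

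**Figure D1:**
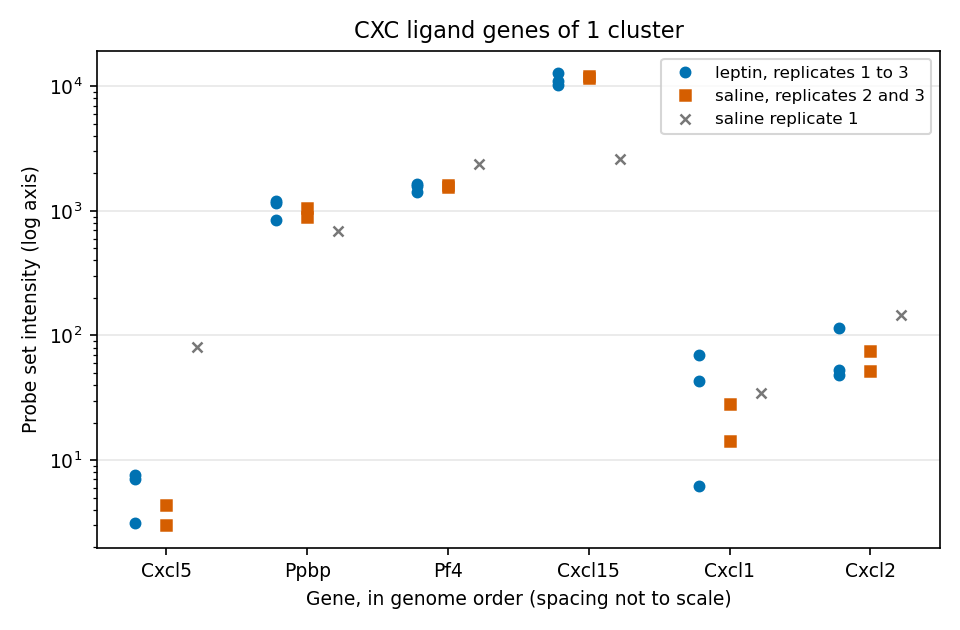
Probe set intensity (log axis) on each array for 6 clustered CXC ligand genes in genome order, leptin as circles, saline replicates 2 and 3 as squares and saline replicate 1 as a cross; Cxcl3, between Pf4 and Cxcl15, is not plotted. Cxcl15 reads 10239.4 or more on all 5 arrays other than saline replicate 1, whereas Cxcl5 stays at or below 7.6 on them.

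Ranked by mean intensity over the 5 arrays, with a gene represented by its brightest probe set, the 12 brightest members were Cxcl15, Cxcl12, Cxcl17, Pf4, Ccl6, Cxcl14, Ppbp, Cxcl16, Cxcr4, Ccl5, Cx3cl1 and Ccl9. The first 7 had means from 11540.0 down to 1030.1, and Cxcr4 was the one receptor among the 12. Each probe set binds its target with its own efficiency, so this is an order of brightness and not of transcript number. Among the 25 genes that passed the filter, the ranges of neighbours in the order failed to overlap at 2 places, between Cxcl15 and Cxcl12 and between Cxcr4 and Ccl5. All other neighbours shared part of their range. At the dim end, Cxcl9, Cxcl10 and Cxcl11, the interferon-induced ligands of Cxcr3, had means of 14.9, 60.9 and 54.0, and Ccl2, Ccl3, Ccl7 and Ccl12, inflammatory ligands of monocyte receptors, had means of 77.5, 6.1, 17.8 and 11.1.

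Many members were too dim to test. The filter passed 34 of the 67 probe sets (50.7%, against 70.0% of all probe sets), which belong to 25 of the 50 genes, 16 ligands and 9 receptors. The filter took the mean over both groups and lay at an intensity of 95.6. The 33 probe sets below it had means of 5.0 to 93.8, and none read above 143.6 on these 5 arrays.

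**Figure D2:**
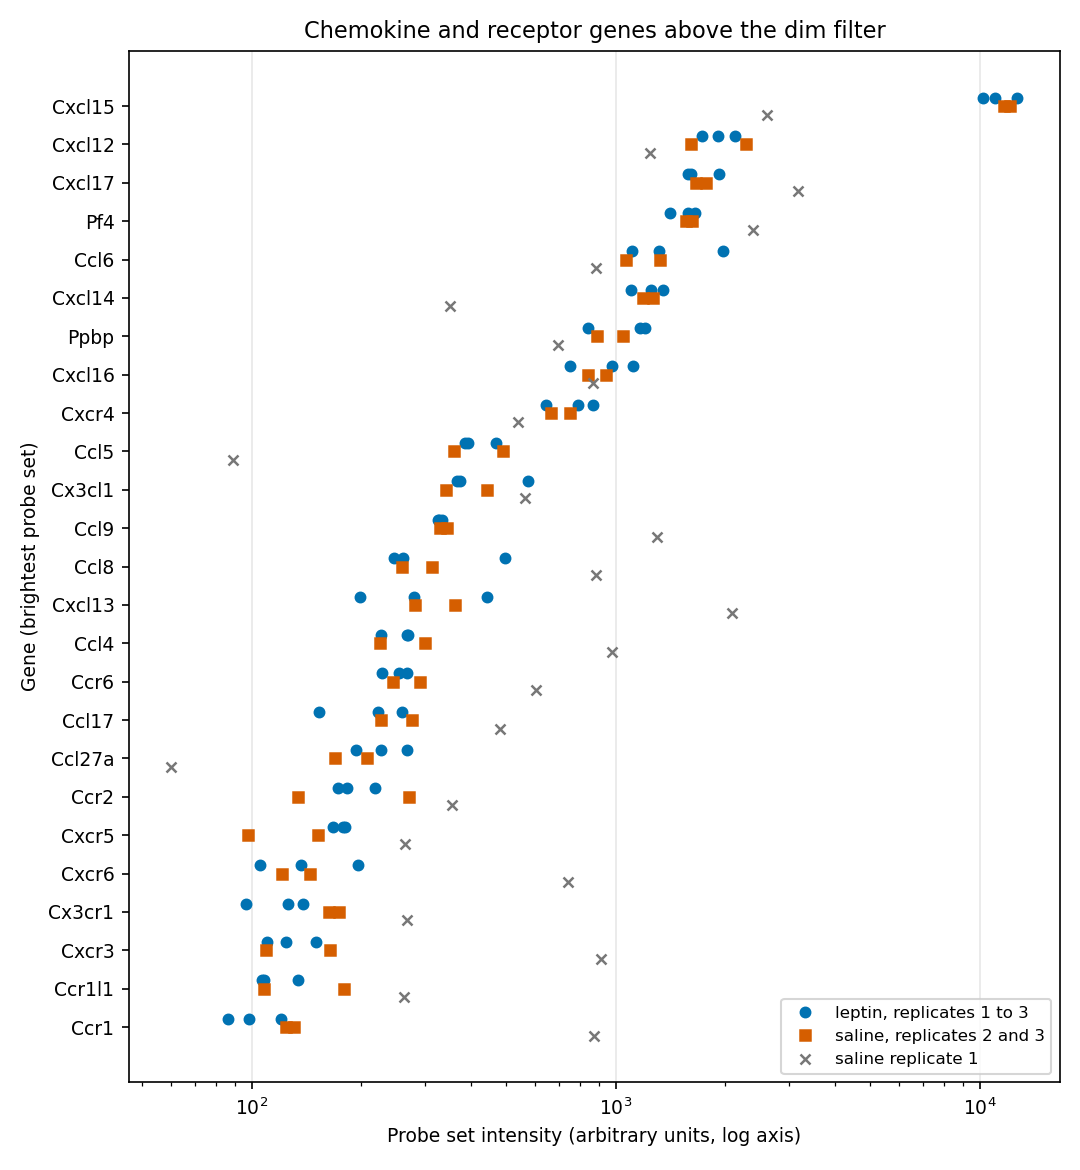
Intensity (log axis) of the brightest probe set of the 25 genes that passed the filter, in order of mean, with leptin as circles, saline replicates 2 and 3 as squares and saline replicate 1 as a cross. Circles and squares overlap for every gene plotted other than Cxcr5, Cx3cr1 and Ccr1, and the crosses scatter to both sides.

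No chemokine or receptor differed between leptin and saline past the threshold. In limma's fit over 15838 probe sets with leptin replicates 1 to 3 against saline replicates 2 and 3, 0 of the 34 member probe sets passed a Benjamini-Hochberg adjusted p of 0.05, against 0.0442% of all probe sets. At an unadjusted p under 0.05 there were 0 members higher and 0 lower, against 2.6% and 1.96% of all probe sets. The series' own rule asks for 1.5-fold, an unadjusted p under 0.05 and most pairwise comparisons past that fold (here 4 of 6). It gave 0 members, against 0.556% of all. The limma adjusted p was 0.999 for each of the 34. Their log2 differences ran from -0.45 to 0.47 with a median of -0.01, 15 above 0 and 19 below, beside a median of 0.00 over all probe sets, 7953 above and 7885 below. All 34 estimates were under 1.5-fold.

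The intervals say how large a difference these arrays leave possible. The 95% interval lay within 2-fold in either direction for 32 of the 34 probe sets and within 1.5-fold for 15. It was widest below 0 for a Ccr2 probe set, at -1.06, and widest above 0 for Cxcr5, at 1.00. Differences inside these intervals remain possible, and the ends of the intervals are not limits of detection. On simulated data, with 100 probe sets changed 2-fold and 100 changed 4-fold, 57% of the former were called with 5 arrays. The real fit called 7 probe sets, and the adjusted threshold is stricter where fewer probe sets change. The changed probe sets were drawn from all levels above the filter, so 57% is not a rate for these members.

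With all 6 arrays, 3 against 3 as the series was designed, 36 member probe sets passed the filter and again 0 passed the adjusted threshold, against 0.0% of all 15837. At an unadjusted p under 0.05 there were 0 members in either direction, against 0.189% of all probe sets higher and 0.177% lower, and the series' rule with 6 of 9 pairwise comparisons gave 0 members against 0.177%. The members' log2 differences then ran from -1.39 to 1.11, with a median of -0.34, beside a median of -0.01 over all probe sets. Since this fit called 0 probe sets on the whole array, its 0 says nothing about the members.

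**Figure D3:**
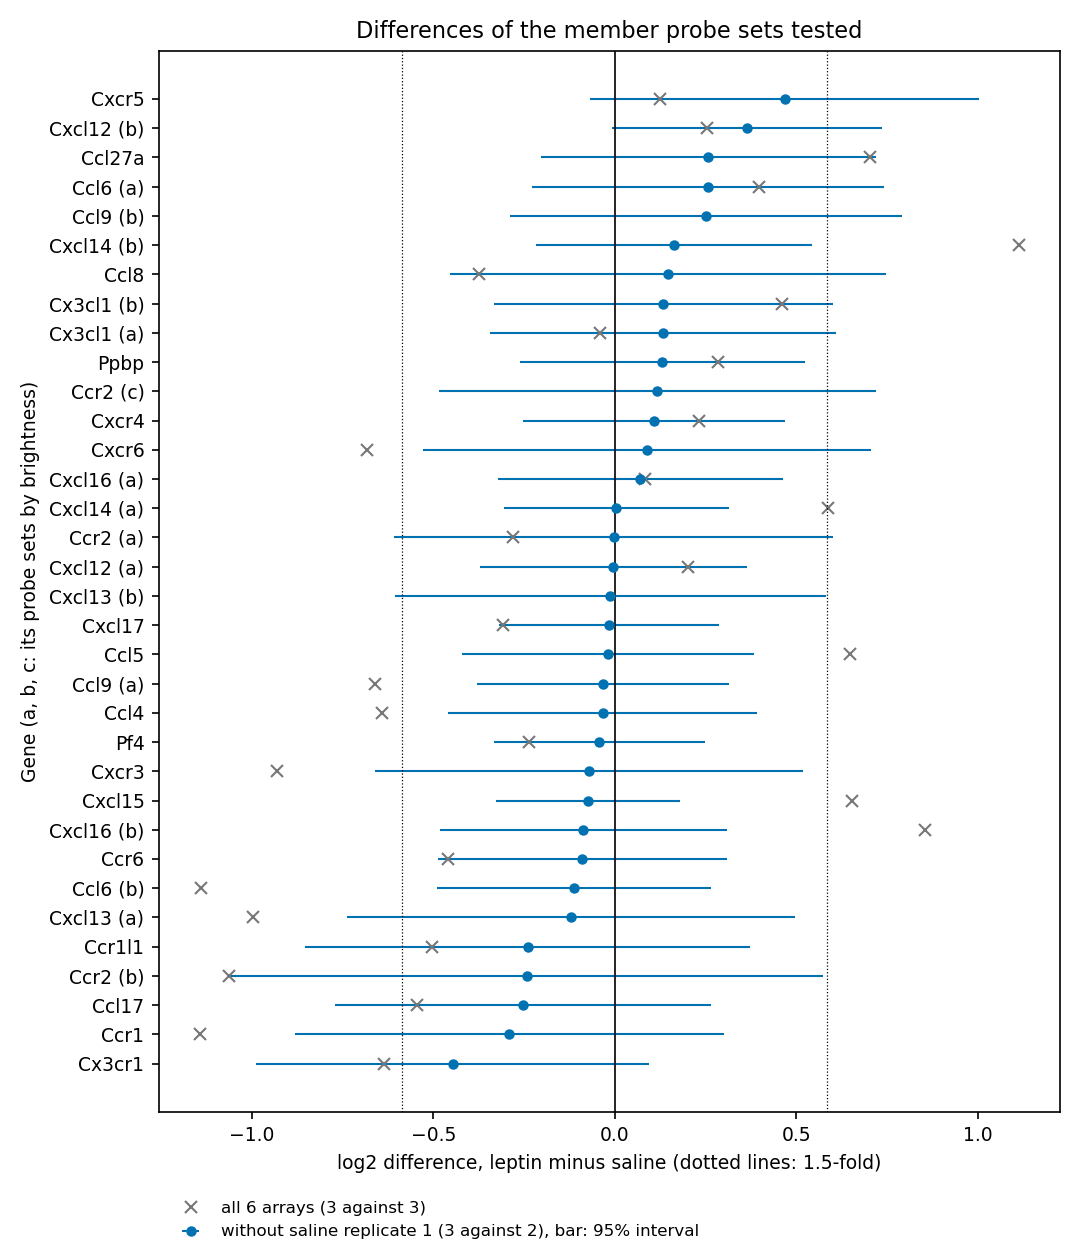
The log2 difference (leptin minus saline) of each member probe set tested, without saline replicate 1 as a circle with its 95% interval and with all 6 arrays as a cross; dotted lines mark 1.5-fold and letters mark probe sets of 1 gene from brightest to dimmest. Every interval spans 0, and every circle lies between -0.45 and 0.47, whereas the crosses reach from -1.14 to 1.11.

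Of the lymphoid and homeostatic ligands, 7 genes in the set, 4 were tested: Cxcl12, Cxcl13, Cxcl14 and Ccl27a. Cxcl12 (Entrez Gene 20315), the stromal ligand that retains leukocytes and progenitors through Cxcr4, gave different answers on its 2 probe sets. The brighter read 2124.7, 1725.2 and 1913.9 with leptin, 2287.6 and 1611.2 on saline replicates 2 and 3, and 1246.3 on saline replicate 1, a log2 difference of 0.00 with a 95% interval of -0.37 to 0.36. The dimmer read 734.9, 977.3 and 1001.0 with leptin, 732.6 and 654.3 on the 2 saline arrays, and 869.9 on saline replicate 1. On it the lowest leptin array stood just above the higher of the 2 saline arrays, and saline replicate 1 fell among the leptin arrays. Its log2 difference was 0.36 ± 0.17 (SE; 95% interval -0.01 to 0.74; limma adjusted p = 0.999). With the replicate number as a block it was 0.50 (limma adjusted p = 0.618), still not past the threshold. Beside it, all 6 fibroblast markers tested were at values above 0, with a median of 0.57 and 0 past the adjusted threshold. Of them 4 were higher at an unadjusted p under 0.05, against 2.6% of all probe sets. The fibroblast markers summed to 21874 to 22800 with leptin, to 17345 and 15609 on saline replicates 2 and 3 and to 8508 on saline replicate 1. Their part in the Cxcl12 value was not tested.

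Cxcr4, the receptor of Cxcl12 on most leukocytes, read 787.3, 645.2 and 868.6 with leptin, 664.9 and 748.1 on saline replicates 2 and 3, and 540.4 on saline replicate 1. Saline replicates 2 and 3 lay inside the leptin range and saline replicate 1 below it. Without saline replicate 1 the log2 difference was 0.11 (95% interval -0.25 to 0.47). Cxcl14, an epithelial and stromal ligand, read 1349.9, 1254.4 and 1104.5 with leptin and 1266.8 and 1191.1 on the 2 saline arrays, with 350.8 on saline replicate 1. Its log2 difference was 0.00, with a 95% interval of -0.31 to 0.31, and 0.16 (-0.22 to 0.54) on its dimmer probe set. Ccl27a, a ligand of Ccr10 best known from skin, was at 0.26 ± 0.21 (SE), and its probe set is of a type that can also bind related transcripts.

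Cxcl13 and its receptor Cxcr5 guide B cells into follicles. The brighter Cxcl13 probe set read 443.0, 198.6 and 279.9 with leptin, then 361.3 and 281.5 on saline replicates 2 and 3, against 2090.0 on saline replicate 1, and its log2 difference was -0.12 (95% interval -0.74 to 0.50). Cxcr5 (Entrez Gene 12145) read 180.9, 167.3 and 178.8 with leptin, 151.9 and 97.5 on the 2 saline arrays, and 264.6 on saline replicate 1. All 3 leptin values lay above both of those saline values and below saline replicate 1. The estimate of 0.47 ± 0.24 (SE; limma adjusted p = 0.999) was the highest of the 34 tested. It depended on which saline array was kept: it was 0.75 without saline replicate 2 and 0.19 without saline replicate 3 (limma adjusted p = 1.0 for both). Beside it, 5 of the 6 B cell markers tested were at values above 0, none past the adjusted threshold, with a median of 0.45. Of them 3 were higher at an unadjusted p under 0.05, against 2.6% of all probe sets. The B cell markers summed to 1323 to 1744 with leptin, to 1304 and 1095 on the 2 saline arrays and to 2521 on saline replicate 1. Their part in the Cxcr5 value was not tested.

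Of the membrane-bound ligands both were tested. Cxcl16, a scavenger receptor and the ligand of Cxcr6 on T cells, read 978.5, 1114.6 and 749.2 with leptin, 841.2 and 941.0 on saline replicates 2 and 3, and 865.4 on saline replicate 1. Its receptor Cxcr6 read 195.7, 136.8 and 105.7 with leptin and 144.9 and 121.0 on the 2 saline arrays, with 741.9 on saline replicate 1. On these probe sets saline replicates 2 and 3 lay inside the leptin range, and the log2 differences were 0.07 and 0.09. A dimmer Cxcl16 probe set had the opposite sign, at -0.09. It read 264.6, 300.1 and 304.3 with leptin, 347.3 and 273.2 on the 2 saline arrays, and 24.9 on saline replicate 1.

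Cx3cl1 (fractalkine), which endothelium and epithelium carry on their surface, read 573.1, 372.8 and 367.5 with leptin, 443.3 and 341.8 on saline replicates 2 and 3, and 565.1 on saline replicate 1, a log2 difference of 0.13 (95% interval -0.35 to 0.61). Its receptor Cx3cr1 (Entrez Gene 13051), found on monocytes, tissue macrophages and cytotoxic lymphocytes, had the lowest estimate of the 34. It read 138.1, 96.6 and 125.8 with leptin, 173.8 and 163.4 on the 2 saline arrays, and 267.7 on saline replicate 1. All 3 leptin arrays lay below saline replicates 2 and 3. Saline replicate 1 read above all other arrays, as it did on 48 of the 67 member probe sets. The log2 difference was -0.45 ± 0.25 (SE; limma adjusted p = 0.999), and -0.64 with saline replicate 1 included (limma adjusted p = 0.707). A second Cx3cr1 probe set read no more than 7.3 on these 5 arrays and was below the filter. Beside it, 5 of 7 macrophage markers tested were at values above 0 (median 0.12), and their list summed to 44620 to 51149 with leptin, and to 48418 and 51167 on the 2 saline arrays. Those sums were mostly Lyz2 and Lyz1, the 2 markers below 0, with Lyz1 at 13968.4 to 16513.8 on these 5 arrays. The sum of 103873 on saline replicate 1 was mostly Csf1r, at 93803.4, whereas Lyz2 read 2050.9 there against 20175.7 to 26547.3 on the other arrays. All 5 cytotoxic lymphocyte markers tested were above 0 (median 0.23), with sums of 751 to 1046, of 908 and 667, and of 3217. Their part in the Cx3cr1 value was not tested.

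The monocyte and macrophage-related CC ligands comprised 9 genes, of which 5 were tested. Ccl6 (Entrez Gene 20305), made by macrophages and other myeloid cells, read 1319.2, 1977.9 and 1108.0 with leptin, 1068.5 and 1325.5 on saline replicates 2 and 3, and 881.7 on saline replicate 1. Leptin replicate 2 stood above the rest. The log2 difference was 0.26 ± 0.22 (SE), and 0.02 without leptin replicate 2. Its second probe set was at -0.11. Ccl9, a myeloid ligand of Ccr1, was the steadiest member: it read 325.5, 327.8 and 333.4 with leptin and 329.4 and 344.4 on the 2 saline arrays, against 1299.8 on saline replicate 1. Its log2 difference was -0.03, and 0.25 on its dimmer probe set.

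Ccl5, a ligand released by T cells and other leukocytes, read 470.2, 385.6 and 393.0 with leptin, 490.9 and 359.0 on saline replicates 2 and 3, and 88.8 on saline replicate 1, and its log2 difference was -0.02 (95% interval -0.42 to 0.38). Ccl8 and Ccl4, ligands of leukocyte CC receptors, were at 0.15 and -0.03. Ccl8 read 496.2 on leptin replicate 1, with the other 4 arrays at 246.4 to 313.9. The groups overlapped on all 7 tested probe sets of this class.

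Of the 5 type 2 ligands, which draw eosinophils and type 2 helper T cells, Ccl17 alone passed the filter. It was at -0.25 ± 0.23 (SE), with 153.2 to 258.5 over the leptin arrays against 275.6 and 226.7. Ccl11, Ccl22, Ccl24 and Ccl1 had means of 69.2, 78.3, 36.1 and 76.9. Xcl1, a product of cytotoxic lymphocytes, had a mean of 44.1. Cxcl17 (Entrez Gene 232983), a mucosal chemokine of airway and gut epithelium, read 1613.1, 1917.4 and 1576.2 with leptin, 1658.4 and 1775.5 on saline replicates 2 and 3, and 3166.8 on saline replicate 1, a log2 difference of -0.02 (95% interval -0.32 to 0.29).

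Among the 10 CC receptor genes 4 passed the filter. On their 6 probe sets the median log2 difference was -0.17, 1 above 0 and 5 below, none at an unadjusted p under 0.05. Ccr1, a receptor of monocytes and neutrophils, read 86.3, 98.5 and 120.5 with leptin, 130.8 and 124.0 on saline replicates 2 and 3, and 874.2 on saline replicate 1. Its leptin arrays lay below saline replicates 2 and 3, at a log2 difference of -0.29 (95% interval -0.88 to 0.30). A second Ccr1 probe set lay below the filter, and on it the groups overlapped. It read 32.6, 3.0 and 16.0 with leptin, 19.5 and 35.5 on the 2 saline arrays, and 75.0 on saline replicate 1. Ccr2, which brings inflammatory monocytes out of the marrow, was at 0.00, -0.24 and 0.12 on its 3 probe sets. Ccr6, a receptor of B cells and some helper T cells, was at -0.09, and Ccr1l1, a close relative of Ccr1, at -0.24. Cxcr3, on activated T cells and natural killer cells, was at -0.07. Ccr7, which takes dendritic cells and lymphocytes to lymph nodes, was below the filter and read 102.3 on leptin replicate 3 against 25.9 to 50.8 on the other 4 arrays.

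Without overlap between leptin and saline replicates 2 and 3 there were 2 member probe sets higher with leptin, Cxcr5 and the dimmer Cxcl12 probe set, and 2 lower, Cx3cr1 and Ccr1. These 4 were singled out after their values were seen. They are 5.88% of the 34 in each direction, against 9.92% of all probe sets higher and 9.69% lower, smaller shares than in the whole table.

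The other genes of the pathway, from a list of signal transducers, decoy receptors, ligand-processing enzymes and inducers, did not pass the threshold either. Of 62 on the array 49 were tested, 0 passed the adjusted threshold, 29 were above 0 and 20 below, and the median log2 difference was 0.01. The decoy receptors Ackr1, Ackr3 and Ackr2, which bind chemokines without guiding cells, were at 0.28, 0.27 and 0.18. Ccrl2, listed with them, was at -0.13. Ackr3, which removes Cxcl12, read 456.4, 419.2 and 417.2 with leptin against 355.7 and 354.0, with 134.6 on saline replicate 1, and did not pass (limma adjusted p = 0.999). At an unadjusted p under 0.05, 0 of the 49 were higher and 1 was lower, against 2.6% and 1.96% of all probe sets. The list thus showed no excess over the whole array. The 1 lower gene was Nfkbia, the inhibitor of NF-kB and itself a target of it. It read 11313.3, 10726.4 and 11666.6 with leptin, 13945.1 and 14103.8 on the 2 saline arrays, and 63657.2 on saline replicate 1. All leptin values lay below those of saline replicates 2 and 3, and the estimate was -0.32 ± 0.10 on the log2 scale (SE; limma adjusted p = 0.908). Tnf and Il6, cytokines that induce chemokines, were below the filter, at no more than 55.7 and 53.4 on these 5 arrays and at 653.4 and 290.2 on saline replicate 1.

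Saline replicate 1 read most members above their level elsewhere. It exceeded all other arrays on 48 of the 67 probe sets, fell below all of them on 14 and lay among them on 5, whereas over all probe sets 54.6% were above and 33.8% below. Its value was a median 2.82 times the mean of the other 5 arrays for the members and 1.52 times for all probe sets, from 0.081 times for the dimmer Cxcl14 probe set to 35.1 times for Ccl25, a thymic and gut ligand that read 664.6 on it. Of the 33 dim probe sets 31 were above all other arrays there, and of the 34 tested 17 were above and 14 below. Fewer members than probe sets in general passed the filter (50.7% against 70.0%). The comparison with all probe sets was not matched for brightness, so it cannot show a trait of the members. Probe sets of 1 gene also parted there: in Ccl6, Ccl9, Ccr2, Cx3cl1 and Cxcl13, 5 of the 14 genes with more than 1 probe set, at least 1 was above and at least 1 below the other arrays. Ccl6 read 3397.8 against 314.0 to 405.7 on 1 probe set and 881.7 against 1068.5 to 1977.9 on the other. The 10th percentile of that array was 57.1, against 16.4 to 19.3 on the others.

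**Figure D4:**
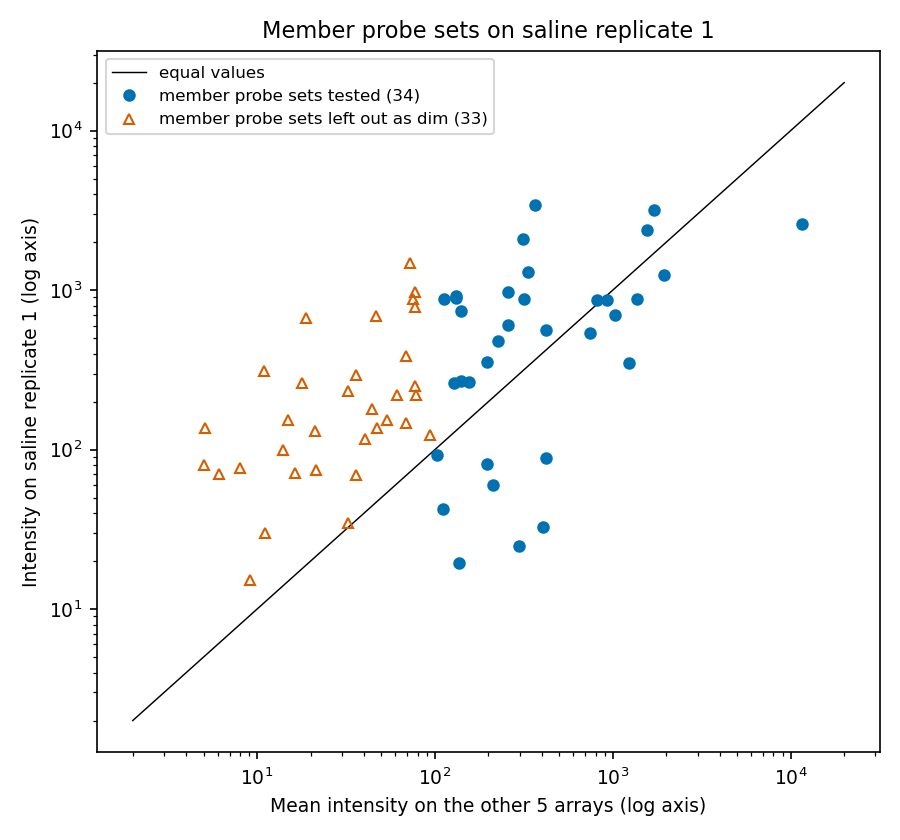
Intensity of each member probe set on saline replicate 1 against its mean on the other 5 arrays (both log axes), filled circles for the 34 tested and open triangles for the 33 left out as dim, with a line of equal values. Nearly all triangles lie above the line, and the circles spread over both sides of it.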

How the data were processed

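The authors deposited linear intensity values of probe sets, 1 column per array. Which software summarised the probes is not given in the sources used here. The trimmed mean without the lowest and highest 2% of probe sets was 500.1 on saline replicate 1 and 500.14 on the other arrays, which shows scaling of every array to the same target. Per the labels' protocols, total RNA was amplified in a small-sample procedure from an oligo(dT) primer. Probe sets were named from the platform's annotation. The RefSeq table (GRCm38.p6) changed 0 member symbols. After leaving out 64 control probe sets, log2(intensity + 17.7) was computed (22.0 with all 6 arrays, the 10th percentile of the values in the fit). The pseudocount understates changes of dim probe sets. The dimmest 30% of probe sets were removed by mean intensity over both groups, and limma 3.58.1 in R 4.3.3 (eBayes with trend, two-sided) was fitted, with Benjamini-Hochberg adjustment. The fit was also run on simulated data with levels and spreads modelled on the 5 arrays. In them, 100 probe sets were changed 2-fold and 100 were changed 4-fold. With 5 arrays the fit called 57% of the former, 89% of the latter and 6 unchanged probe sets. With the real saline replicate 1 added it called 0% of either.

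Arrays were not stated to come from separate litters, so p-values measure the spread between these samples. The number of arrays limits the precision. Members, lists and tests were chosen with earlier results of these data known. By the naming rule, values in every array were printed for the 12 brightest members, for members whose brightest probe set had an unadjusted p under 0.05, and for members whose groups did not overlap at 1.5-fold or more, and for other pathway genes at an unadjusted p under 0.05. Beyond the 12, these criteria added Nfkbia alone. Every other gene given with its array values (Cxcr5, Cx3cr1, Ccr1, Cxcr6, Cxcl13, Cxcl1, Cxcl2, Cxcl5, Ackr3 and the dimmer Cxcl12 probe set among them) was added after its values were seen, as a non-overlapping value, a receptor or ligand partner, or a neighbour in the gene cluster. The decoy receptors, Ccrl2, Tnf and Il6 were likewise named outside the rule. Deviations from the group means correlated at 0.147, 0.105 and 0.105 between arrays of equal replicate number. Between arrays of unequal number they correlated at -0.149 to 0.0481. A pairing by number is possible, though no label states one. These values cannot decide it, because the saline mean held saline replicate 1. The effect of a replicate block is given where it moves a count. The series' rule names no test. A pooled-variance test on the log2 values was used. Alternatives were other normalizations, pseudocounts, filters, thresholds and variance settings, and leaving out each array. The effect of each is given at the end.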

Additional observations from a re-analysis of the deposited data

How the results depend on the processing

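No alternative run, with or without saline replicate 1, called a chemokine or receptor. Many of them, the fit to all 6 arrays included, called no probe set on the whole array, so their 0 says nothing about stability. At an unadjusted p under 0.05 at most 2 members appeared under any of them. The replicate block moved that count from 0 to 1, the dimmer Cxcl12 probe set, at 0.50 (limma, unadjusted p = 0.00659, adjusted p = 0.618).

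Over all probe sets there were 7 calls without saline replicate 1, probe sets of Alas2, Bpgm and Slc25a37 among them. The count fell to 0 without the filter, without the variance trend, at a pseudocount of 1 and with the replicate block. It also fell to 0 with quantile or median normalization. It ranged from 0 to 3 with a leptin array left out, and was 11 at a threshold of 0.10 and 88 by the series' rule. With all 6 arrays 0 became 8 with array weights and 28 by the series' rule, and ranged from 0 to 7 with 1 array left out, 7 being the count without saline replicate 1. The cause was not tested.

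Alternatives were computed for 16 member probe sets of 15 genes, the 12 brightest and the 4 without overlap. Of their 237 values 25 changed sign, none of them called. With all 6 arrays (an alternative chosen after seeing the data) Cxcl15, Cxcl12, Ccl5 and Cx3cl1 were at 0.65, 0.20, 0.65 and -0.04. With the replicate block Cxcl17, Pf4, Cxcl14 and Cx3cl1 were at 0.019, 0.021, -0.061 and -0.070, and Cxcl14 was at -0.012 with a common median. With 1 array left out, the ranges that crossed 0 were -0.255 to 0.246 for Cxcl12, -0.105 to 0.035 for Cxcl17, -0.090 to 0.021 for Pf4, -0.061 to 0.082 for Cxcl14, -0.054 to 0.227 for Cxcl16, -0.234 to 0.199 for Ccl5 and -0.070 to 0.312 for Cx3cl1. Without crossing 0, Ccl6 ranged from 0.022 to 0.435, Cxcr5 from 0.188 to 0.748, Ppbp from 0.015 to 0.292 and Cxcr4 from 0.015 to 0.224.

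The 12 brightest members stayed the same under 4 of 7 alternatives to the ranking, and 11 of 12 were shared with all 6 arrays, without leptin replicate 2 and without saline replicate 3. The depth of an array is its signal over background, which limits the 33 dim probe sets.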
